A study of Mus musculus with 8 samples.

Results

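Peaks of the RNA helicase DDX5 were examined on 10 immediate-early response genes, Fos, Fosb, Jun, Junb, Jund, Atf3, Egr1, Klf6, Btg2 and Ier2, out of 55450 genes annotated in GENCODE M21. A peak was assigned to a gene when it overlapped that gene on the same strand of the mouse genome (GRCm38). The 3 peak lists of the series held 53 such peaks of 16455 (colon mAb), 13 of 9146 (colon rAb) and 31 of 1278 (small intestine). The genes were chosen because Atf3 and Btg2 were already known to carry enriched colon peaks, so the number of enriched member peaks is a description here and not a test.

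In the study, RNA that could be UV cross-linked to DDX5 was recovered from intestinal epithelial cells (IECs) by immunoprecipitation (IP) and sequenced by eCLIPseq beside a size-matched input, a library from the same lysate that was not immunoprecipitated. Small intestine IECs of wild-type, 8-week-old female C57BL/6 mice gave 2 CLIP and 2 input samples, which the authors merged into 1 list of reproducible peaks. Colonic IECs gave 1 CLIP and 1 input sample for each of the antibody names mAb and rAb. The colon samples are C57BL/6 and carry the genotype label wild type, but their growth protocol names 120-day-old Apc fl/+ CDX2Cre mice, in which a Cre driven by CDX2 acts on 1 floxed copy of Apc, and the labels give mAb and rAb the same catalogue number. What separates the mAb and rAb samples, and whether the colon mice carried the Apc allele, is therefore not known here. The study's methods speak of wild-type female mice for eCLIPseq of IECs, in an age range that starts at 8 weeks and ends well short of 120 days. The age of the colon mice is thus also uncertain. By their names, the colon lists merge 2 replicates, while each antibody has a single CLIP sample.

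Each peak carries a log2 fold, which is the depth-normalized reads of IP over input, and a −log10 p from the authors' test of the same reads. A peak with both values above 3, the cutoff of the study, is called a site here. The colon lists held every called peak, enriched or not, whereas all 1278 peaks of the small intestine list (100%) were sites. Tissue, labelled age, library protocol and peak selection differed together between the small intestine list and the colon lists. The Apc genotype may have differed too. Folds are therefore set side by side, and no p-value was computed between any of the lists. The files gave no read counts, but for the colon lists the fold and p of a peak could be traced to whole IP and input reads, as described with the processing. The depth of input over IP was 1.48 for mAb and 3.15 for rAb. A read-based 95% interval is the exact interval for a ratio of 2 counts and covers counting error only.

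Immediate-early genes are transcribed within minutes of a growth, stress or injury signal, without prior protein synthesis, and their messages are short-lived. Many encode transcription factors. Fos and Jun proteins pair through a leucine zipper to form AP-1, which binds regulatory DNA of genes for proliferation, repair and inflammation. DDX5 is a DEAD-box helicase found largely in the nucleus, where it takes part in transcription and in RNA processing.

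The results turn on stretches of RNA that were called in both tissues, and these are shown first so that the later values can be set against them. The RNA strand is written 5′ to 3′ in DNA letters, from the RefSeq GRCm38.p6 genome. Capitals mark the bases that a colon mAb peak and a small intestine site share, and lower-case bases lie outside the stretch shared by that pair. The last 5 bases of the second Atf3 sequence are shared by the same mAb peak with a neighbouring small intestine site. The first pair of Atf3 sequences comes from intron 1, at chr1:191182444-191182518 (minus strand) and chr1:191182770-191182831 (minus strand).
Atf3 intron 1, site in both lists: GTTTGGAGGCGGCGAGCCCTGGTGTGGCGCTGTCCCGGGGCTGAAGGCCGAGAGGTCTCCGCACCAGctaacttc
Atf3 intron 1, nearer the start: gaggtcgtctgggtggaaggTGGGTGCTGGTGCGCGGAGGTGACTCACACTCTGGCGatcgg
The Fosb pair lies within intron 1 of the coding transcript, which is also covered by a retained-intron transcript, at chr7:19308618-19308694 (minus strand) and chr7:19307851-19307916 (minus strand).
Fosb intron 1, site in both lists: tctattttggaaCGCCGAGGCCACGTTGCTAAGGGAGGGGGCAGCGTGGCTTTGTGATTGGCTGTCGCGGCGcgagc
Fosb intron 1, further in: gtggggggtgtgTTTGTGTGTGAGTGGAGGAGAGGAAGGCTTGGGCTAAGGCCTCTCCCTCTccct
The Jund pair lies in the coding sequence of its single exon, at chr8:70699140-70699200 and chr8:70699624-70699716 (plus strand).
Jund coding sequence, first: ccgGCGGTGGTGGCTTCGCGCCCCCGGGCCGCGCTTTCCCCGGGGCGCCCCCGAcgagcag
Jund coding sequence, second: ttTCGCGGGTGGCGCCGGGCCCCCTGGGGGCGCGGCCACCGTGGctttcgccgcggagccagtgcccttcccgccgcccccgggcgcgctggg
A stretch of the Jun 3′ UTR was called in all 3 lists, over 50 shared bases at chr4:95050102-95050151 (minus strand), of which the middle 30 are given. The middle 30 bases of the Btg2 3′ UTR site at chr1:134076991-134077090 (minus strand) are given beside it, in lower case because no other list called them.
Jun 3′ UTR, shared by 3 lists: GGACTGGGTTGCGACCTGACGGCGCCCCCA
Btg2 3′ UTR, colon mAb list only: taaaaggggattcttggctgatccccccag
All of these except the Btg2 stretch, at 53.3%, held at least 60.6% G and C. Over all member peaks the median GC content was 61.1% for mAb, against 56% for every peak of that list, 70% against 55.6% for rAb, and 66.1% against 59.7% for the small intestine.

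In the colon mAb list every member had at least 1 called peak, and 3 of the 53 member peaks were sites, on Atf3, Btg2 and Fosb. Of the 55450 annotated genes, expressed or not, 5558 had an mAb peak, 3907 a rAb peak and 491 a small intestine site. The share among expressed genes is not known here. Of all 16455 mAb peaks, 1.22% were sites, and of those on protein-coding genes 1.08%. No mAb site with traced reads had fewer than 10 IP reads, and of the 1039 mAb peaks with at least 10, 17.5% were sites. Of the 13 member peaks with that many reads, 3 (23.1%) were sites, a share near that background. By gene, 3 of the 10 members had a site, where 2.64% of the 5558 genes with a called mAb peak did. Atf3 and Btg2, for which the set was chosen, are among these 3, so the share by gene was partly fixed in advance. It is also not matched on peaks or reads per gene. In the colon rAb list, 7 members had a peak and none of the 13 member peaks was a site, against 1.99% of all rAb peaks, 1.74% of those on protein-coding genes, 15.4% of those with at least 7 IP reads (2 member peaks) and 3.17% of the 3907 genes with a rAb peak. Of the genes called in the mAb list, 53.2% were also called in the rAb list. Btg2, Fosb and Egr1 had no rAb peak. In the small intestine, 9 members carried 31 sites, and Btg2 carried none. Among the 5558 genes called in the mAb list, 7.43% had a small intestine site, and among the 3907 called in the rAb list, 8.09%. Over the 1423 genes with at least 4 mAb peaks the share was 17.5%, and all 7 members with that many mAb peaks had such a site. In bulk samples, fewer cells expressing a gene and less of its RNA per cell cannot be told apart.

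**Figure D1:**
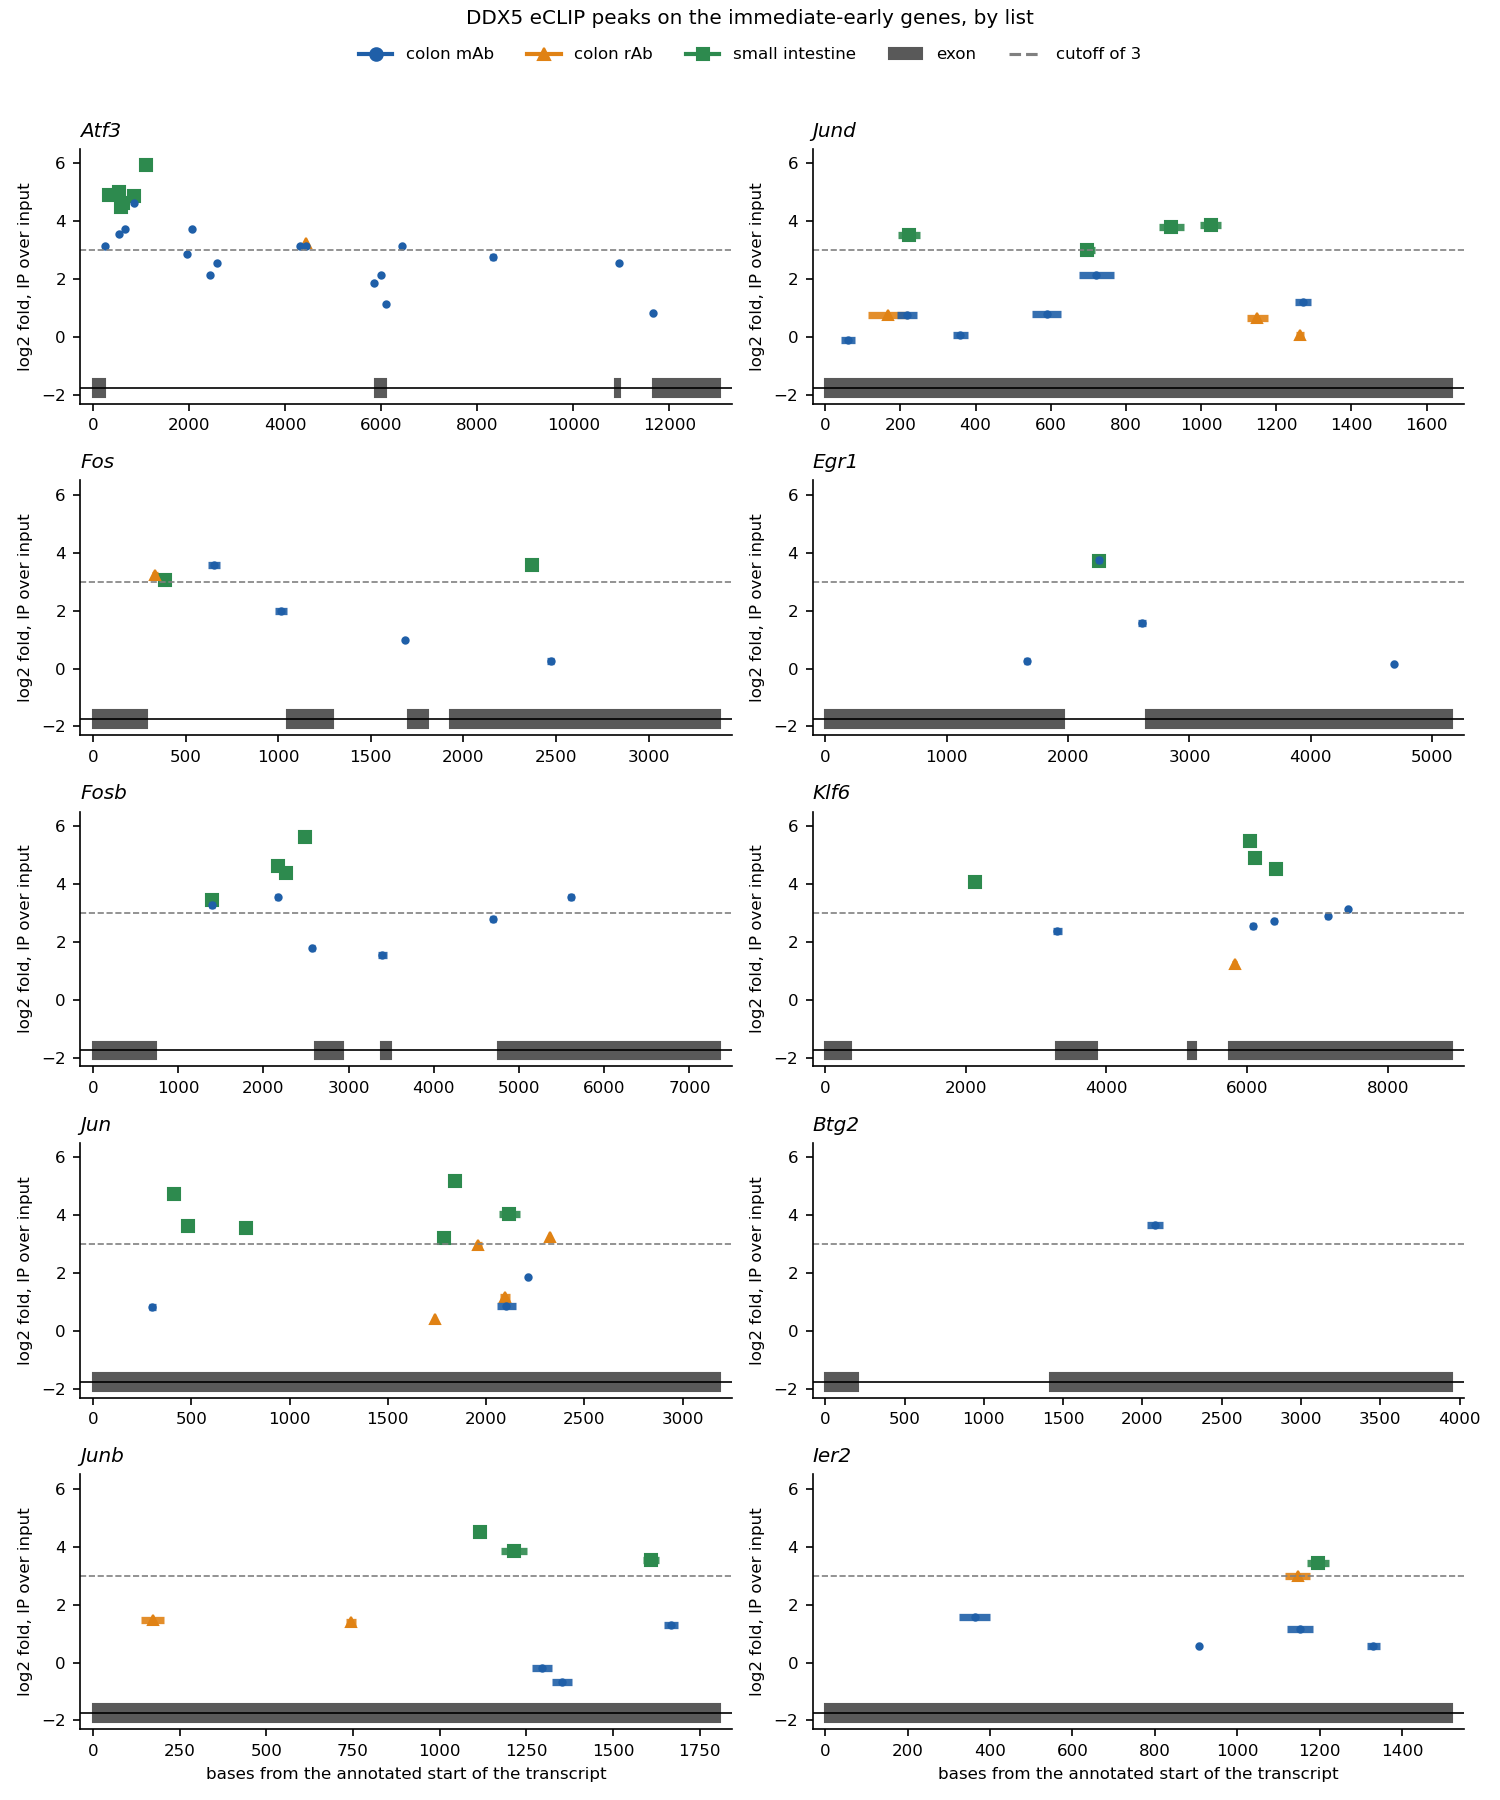
Peaks of the 10 genes in the colon mAb (blue circles), colon rAb (orange triangles) and small intestine (green squares) lists; the x axis is the distance in bases from the annotated start of the coding transcript, the y axis the log2 fold of IP over input, the width of a bar the width of the peak, and gray boxes are exons. The 6 small intestine sites of Atf3 lie together at the start of intron 1, the Jun, Junb, Jund and Ier2 transcripts have 1 exon, and Btg2 has a single peak.

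Atf3, a stress-induced member of the ATF/CREB family that dimerizes with Jun proteins, had the most peaks of any member in the mAb list. Its gene spans chr1:191170296-191218039 on the minus strand, and the transcript used for numbering has 4 exons with 1984 exonic and 11061 intronic bases. Distances from the start are counted from the first base of that transcript, here and for the other genes. Of its 17 mAb peaks, 11 lay in introns and 6 touched a coding-transcript exon. The intronic peaks had log2 folds from 2.15 to 4.65, with a median of 3.15, and the exonic peaks from 0.83 to 3.15, with a median of 2.02. Summed over peaks, the introns held 96 IP reads and 15 input reads, and the exons 33 IP and 17 input reads. In 10 of the 11 intronic peaks the input was at its lowest value of 1 read, which cannot be told from 0 reads.

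The Atf3 site of the mAb list, in intron 1 at 855 bases from the start, had a log2 fold of 4.65 from 17 IP reads over 1 input read, with an interval of 1.98 to 10.04 and a −log10 p of 5.65. It was the highest log2 fold among the member peaks of that list. Its small intestine counterpart had a log2 fold of 4.88, with a −log10 p of 36.4. The pair shares 67 bases, which are the capitals in the first Atf3 sequence above.

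All 6 small intestine sites of Atf3 were in intron 1, within 810 bases at chr1:191182228-191183037, and none touched an exon of a coding transcript. From the start inward, their log2 folds were 4.92, 5.02, 4.50, 4.64, 4.88 and 5.96. The last, 1098 bases from the start, was the highest log2 fold of any member peak and overlapped no colon peak. Inside the same stretch the mAb list held 3 peaks, with log2 folds of 3.56, 3.73 and 4.65, and the first 2 had −log10 p of 2.39 and 2.74, below the cutoff. Each of these 3 peaks overlapped at least 1 small intestine site.

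Further into Atf3, an intron 2 peak of the mAb list rested on more reads than its site, 23 IP over 5 input, with a log2 fold of 2.77 (interval 1.34 to 4.52) and a −log10 p of 4.80. It missed the fold cutoff alone. The single rAb peak of Atf3 lay in intron 1, 4439 bases from the start, with 3 IP reads over 1 input read and a log2 fold of 3.24 (interval −0.40 to 8.95). An mAb peak shared 30 of its bases, with a log2 fold of 3.15 from 6 IP reads over 1. No small intestine site lay at this place.

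Fosb, a Fos-family partner of Jun proteins on chr7:19302696-19310051 (minus strand), followed Atf3 in that its peaks of highest fold lay mostly in intron 1. Its mAb site, 1393 bases from the start, had 13 IP reads over 2 input reads, a log2 fold of 3.26 (interval 1.12 to 6.45) and a −log10 p of 3.51. The overlapping small intestine site stood at 3.45 in log2 fold and 10.3 in −log10 p, and the pair shares 60 bases. A second shared stretch, 2168 bases from the start, had a log2 fold of 3.56 from 8 IP reads over 1 in the mAb list, short of the p cutoff at 2.39, and 4.62 in the small intestine.

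The other small intestine sites of Fosb had log2 folds of 4.37 and 5.62, so that all 4 fell in intron 1 of the coding transcript. They are counted as exonic in a non-coding transcript because an annotated retained-intron transcript spans them. Position is therefore given below both by any transcript and by coding transcripts. Another mAb peak of this intron had a log2 fold of 1.79. Outside it the mAb list held an intron 3 peak at 2.79 in log2 fold and 3.18 in −log10 p (14 IP reads over 3), an exon 3 peak at 1.56 and a 3′ UTR peak at 3.56.

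Fos, the founding member of the family (chr12:85473890-85477273, plus strand), had peaks in all 3 lists but no base shared between any of them. In the mAb list its log2 folds were 3.56 in intron 1 (8 IP reads over 1), 1.98 at the end of intron 1, touching exon 2 by 1 base and so counted as exonic, 0.98 in intron 2 and 0.24 in exon 4. The rAb list had 1 Fos peak, in intron 1, with a log2 fold of 3.24 from 3 IP reads over 1. The small intestine list had a site in intron 1, with a log2 fold of 3.04, close to the cutoff, and another in the coding sequence of exon 4 at 3.56. Peaks of intron 1 thus came from all 3 lists, at 332, 386 and 652 bases from the start.

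Jun, the central AP-1 subunit, is encoded by a single exon at chr4:95049034-95052222 (minus strand). Its small intestine sites numbered 6, the same as for Atf3, and only 35 of the 491 genes with a site had more. The median over those genes was 2 sites. These counts take each listed interval as a site, and some intervals of Atf3 and of Jun lie within 10 bases of each other. With such intervals joined, the small intestine list had 27 member sites in place of 31, and the ranks were not recomputed. Its sites lay in the 5′ UTR, with log2 folds of 4.74, 3.64 and 3.55, in the coding sequence, at 5.20 and 3.23, and in the 3′ UTR, at 4.03. The last had a −log10 p of 50.8, the highest of the member peaks. In the colon lists no Jun peak was a site. The mAb list held 3 peaks, with log2 folds of 0.83, 0.89 and 1.89, and the rAb list 4, with log2 folds of 0.43, 1.17, 2.98 and 3.24.

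At the Jun 3′ UTR stretch called in all 3 lists, the mAb log2 fold was 0.89 (15 IP reads over 12 input reads, interval −0.31 to 2.11) and the rAb log2 fold 1.17 (5 over 7, interval −0.83 to 3.04). The small intestine value there was 4.03. Both colon intervals include 0, so enrichment over input was not detectable at this depth in either colon list.

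Junb, which forms AP-1 dimers of weaker activity than Jun, and Jund, the Jun protein with the steadiest expression, are also single-exon transcripts. Junb (chr8:84974484-84978718, minus strand) had small intestine sites with log2 folds of 3.53 in the 3′ UTR and of 3.86 and 4.51 in the coding sequence. Its mAb peaks had log2 folds of −0.68, −0.17 and 1.30, and its rAb peaks 1.39 and 1.46, with no overlap between the lists. The Junb −0.68 was the lowest log2 fold among all member peaks.

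Jund (chr8:70698949-70700616, plus strand) had the member peak with the most IP reads in the mAb list and the one with the most input reads. Its 6 mAb peaks ran from −0.10 to 2.15 in log2 fold. The peak with most input, in the coding sequence at 359 bases from the start, had 25 IP reads and 35 input reads and a log2 fold of 0.08 (interval −0.72 to 0.86). At 721 bases from the start the mAb log2 fold was 2.15 (30 IP reads over 10, interval 1.08 to 3.35) with a −log10 p of 4.78, and the small intestine site there, the second Jund sequence, had 3.02. At the first Jund sequence the log2 folds were 0.76 (mAb), 0.77 (rAb) and 3.53 (small intestine). The other small intestine sites of Jund were at 3.82 and 3.89, and the other rAb peaks at 0.07 and 0.65.

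**Figure D2:**
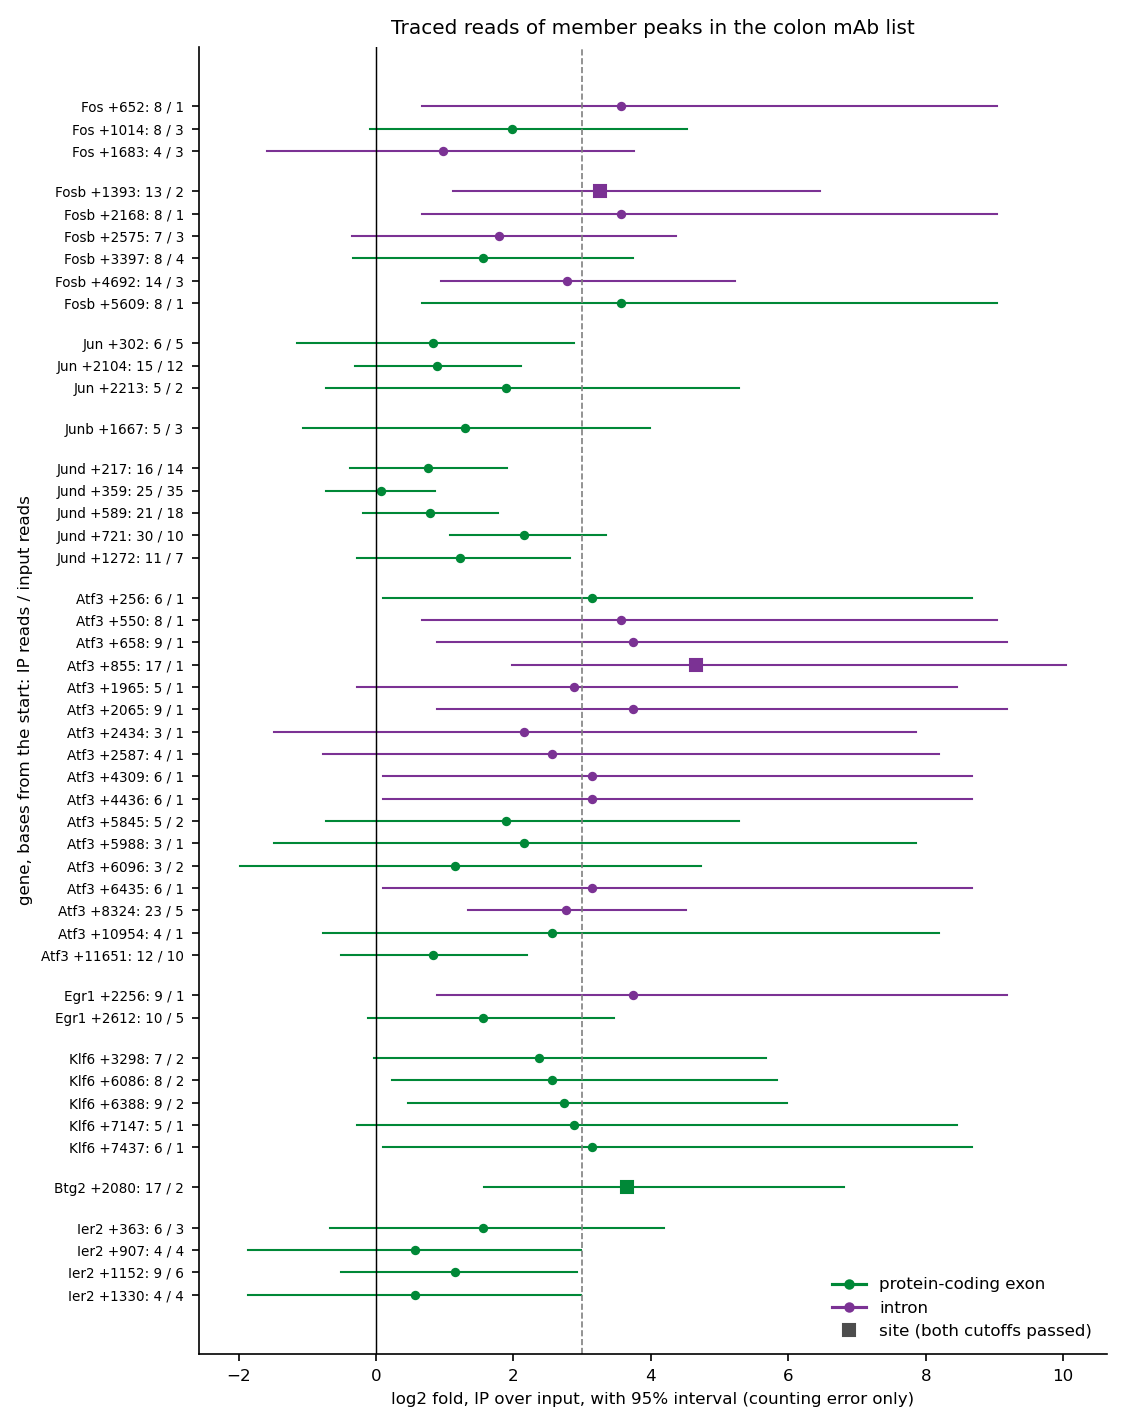
Log2 fold of IP over input (x axis) with its read-based 95% interval for the 47 member peaks of the colon mAb list whose reads could be traced, grouped by gene (y axis, with the distance from the start and the IP and input reads). Squares are the 3 sites, on Atf3, Fosb and Btg2; no interval lies wholly above the cutoff of 3, and the Jund peak with 25 IP and 35 input reads has the narrowest interval.

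Egr1, a zinc-finger factor induced by serum response factor, had its one small intestine site in the intron, at 3.73 in log2 fold and 19.9 in −log10 p. The mAb peak over the same 47 bases also had a log2 fold of 3.73, from 9 IP reads over 1 (interval 0.88 to 9.19), and its −log10 p of 2.74 kept it below the cutoff. Exonic mAb peaks of Egr1 had log2 folds of 0.15, 0.24 and 1.56. The peak at 1.56 lay mostly in the intron and reached into exon 2, and so is counted as exonic. There was no rAb peak.

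Klf6, a Krüppel-like zinc-finger factor (chr13:5861482-5870394, plus strand), differed from Atf3, Fosb and Egr1 in that most of its peaks lay in the 3′ UTR. Its 5 mAb peaks had log2 folds of 2.37 to 3.15, from 5 to 9 IP reads over 1 or 2 input reads, and none reached a −log10 p above 2.01. Small intestine sites numbered 3 in the 3′ UTR, with log2 folds of 5.50, 4.89 and 4.51, and the first pair overlapped an mAb peak at 2.56 and the last one at 2.73. Its remaining site, at 4.08, lay in intron 1 of the coding transcript, where an alternative transcript has coding sequence. The rAb list had 1 peak, in the coding part of exon 4, with a log2 fold of 1.24.

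Btg2, an antiproliferative protein that recruits the deadenylase complex to messages, had a single peak in all 3 lists (chr1:134075170-134079120, minus strand). That peak, the 3′ UTR site of the mAb list, had 17 IP reads over 2 input reads, a log2 fold of 3.65 (interval 1.58 to 6.81) and a −log10 p of 4.88. It was the only member site of the mAb list that touched an exon of a protein-coding transcript. With no peak listed in the small intestine or the rAb list, no value can be given for Btg2 there.

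Ier2, a small nuclear protein induced by growth factors (chr8:84661331-84662852, minus strand), had log2 folds of 0.56, 0.56, 1.15 and 1.56 in the mAb list. One stretch of its 3′ UTR was called in all 3 lists. There the log2 fold was 1.15 in the mAb list (9 IP reads over 6, interval −0.50 to 2.92), 2.98 in the rAb list (5 over 2, interval 0.37 to 6.37) and 3.42 in the small intestine. The 2 colon intervals overlap, so the mAb and rAb values cannot be separated at this depth.

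Ordered by the highest log2 fold of each gene in the mAb list, the members ran from Atf3 at 4.65 through Egr1 at 3.73, Btg2 at 3.65, Fos and Fosb at 3.56, Klf6 at 3.15, Jund at 2.15, Jun at 1.89 and Ier2 at 1.56 to Junb at 1.30. Intervals of every pair of neighbours in this order overlap. The corresponding order in the small intestine was Atf3 at 5.96, Fosb at 5.62, Klf6 at 5.50, Jun at 5.20, Junb at 4.51, Jund at 3.89, Egr1 at 3.73, Fos at 3.56 and Ier2 at 3.42. These are the authors' values over merged replicates and carry no spread, so it is not known which neighbours there differ. Atf3 led both orders, but it had the most mAb peaks, 17, and a highest value favours genes with many peaks. Its enriched colon peak was also a reason for choosing the set. By the median log2 fold of each gene, Btg2 (3.65, 1 peak) and Fosb (3.03) stood above Atf3 (2.89) in the mAb list. In the small intestine Atf3 was also first by median (4.90).

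The values at the edge of the cutoff were close to each other. Just inside it were the Fosb site, at 3.26 and 3.51 for log2 fold and −log10 p, and the Btg2 site, at 3.65 and 4.88. Just outside on p were the Egr1 intron peak and 2 peaks of Atf3 intron 1, all at 3.73 in log2 fold and 2.74 in −log10 p, from 9 IP reads over 1. Just outside on fold were the intron 2 peak of Atf3 (2.77) and the intron 3 peak of Fosb (2.79). In all, 15 of the 53 member peaks (28.3%) exceeded the fold cutoff, against 2.81% of all mAb peaks, and 6 (11.3%) exceeded the p cutoff, against 2.79%. The median member peak had 8 IP reads, against 3 over the list, and 31.7% of all traced mAb peaks were 3 IP reads over 1, a log2 fold of 2.15 that cannot pass. Among peaks with at least 10 IP reads, 3 of 13 member peaks (23.1%) and 18.9% of all mAb peaks exceeded the fold cutoff. In the rAb list 3 of 13 (23.1%) exceeded the fold cutoff, against 32.0% of all rAb peaks, and none the p cutoff. There, 3 IP reads over 1 give a log2 fold of 3.24, which is the value of all 3.

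**Figure D3:**
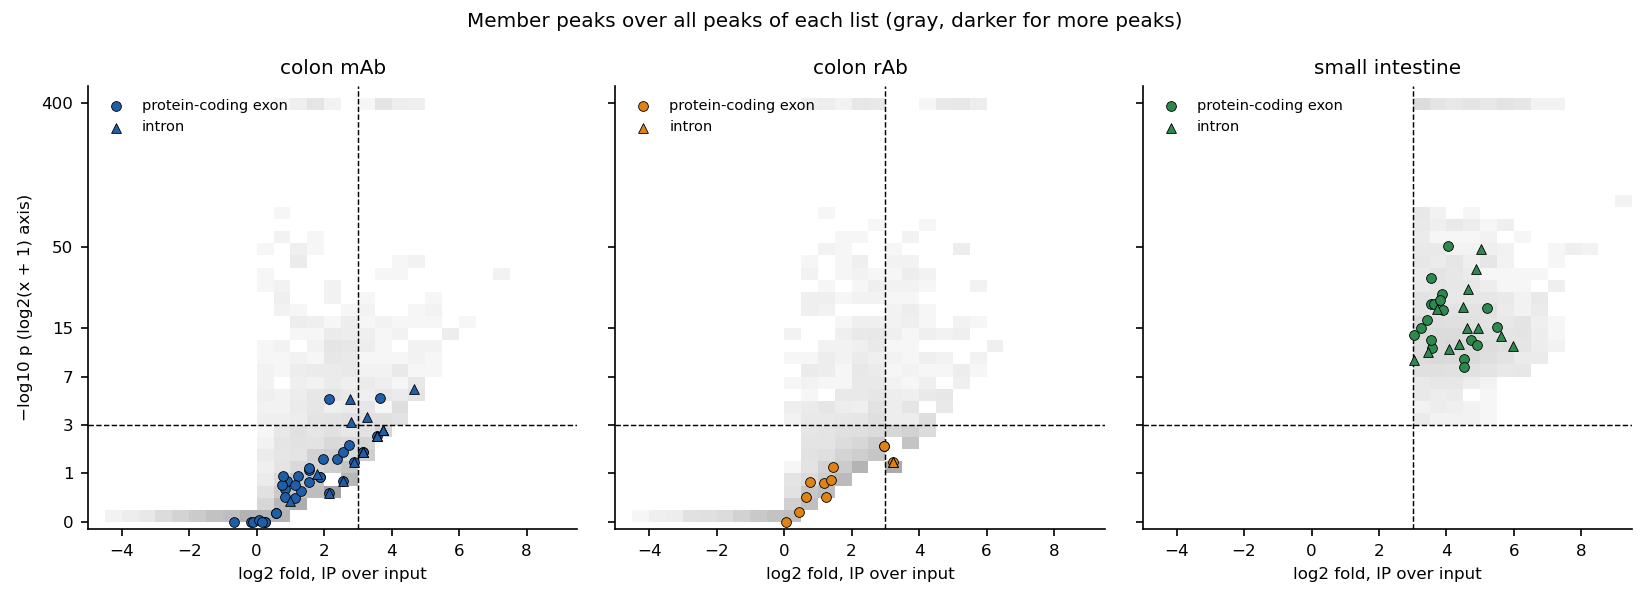
Log2 fold (x axis) and −log10 p (y axis, on a log2(x + 1) scale) of member peaks over all peaks of the same list in gray, in 1 panel per list; circles touch a protein-coding exon, triangles lie in introns, and dashed lines mark the cutoff of 3. The 3 mAb sites are in the upper right quadrant, several intronic mAb peaks lie to the right of the fold line but below the p line, and all 13 rAb peaks lie below the p line.

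Position was then compared list by list. A peak was exonic if at least 1 base lay in an exon of any annotated transcript. By this rule 38 of 53 mAb member peaks were exonic, or 71.7% (exact 95% interval 57.7 to 83.2%), against 74.9% of all mAb peaks. In the rAb list 11 of 13 were exonic, or 84.6% (54.6 to 98.1%), against 84.1%. In the small intestine 23 of 31 were exonic, or 74.2% (55.4 to 88.1%), against 63.0%. All 3 intervals contain the share over all peaks, but they treat the peaks of a gene as independent. They are thus likely too narrow and are no test of agreement. Some peaks counted as exonic lie mostly in an intron. Placed by the midpoint of the peak, 64.2% of mAb member peaks were exonic, and that share was not computed over all peaks. Peaks of a gene share that gene's structure, and 4 of the 10 members, Jun, Junb, Jund and Ier2, have no intron in the coding transcript.

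With exons of protein-coding transcripts alone, 35 mAb member peaks were exonic (66.0%, against 68.6% of all mAb peaks) and 18 were intronic. In the small intestine 18 were exonic (58.1%, against 46.9%) and 13 intronic, and the rAb count stayed at 11. The 18 intronic mAb peaks came from Atf3 with 11, Fosb with 4, Fos with 2 and Egr1 with 1. The 13 intronic small intestine sites came from Atf3 with 6, Fosb with 4 and Fos, Egr1 and Klf6 with 1 each. By region, 15 mAb member peaks (28.3%) lay in a 3′ UTR, against 12.1% of all mAb peaks, and 17 (32.1%) in coding sequence, against 49.8%. In the rAb list 4 of 13 (30.8%) lay in a 3′ UTR, against 13.8%, and in the small intestine 6 of 31 (19.4%), against 8.29%.

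Within the mAb list, intronic member peaks had a median log2 fold of 3.15 (0.98 to 4.65) and exonic ones of 1.30 (−0.68 to 3.65). Over all mAb peaks the medians were 2.15 off protein-coding exons, a class that also holds exons of non-coding RNAs, and 1.15 on them. The median input was 1 read for the intronic member peaks and 3 reads for the exonic ones, while the median IP was 8 reads for both. Over all traced mAb peaks the median IP was 3 reads off and 4 reads on protein-coding exons. The list median of 2.15 is the fold of 3 IP reads over 1. Member and list medians are therefore not matched on reads, and no matched comparison by position was made. Of the 18 intronic member peaks, 11 were on Atf3. An input of 1 read was found in 13 of 18 intronic (72.2%) and 6 of the 29 traced exonic member peaks (20.7%), against 69% and 30.7% of all traced mAb peaks off and on protein-coding exons. The read-based interval lay above a log2 fold of 0 in 13 of 18 intronic and 7 of 29 exonic peaks, and below 3 in 0 and 10 of them. In the small intestine the medians were 4.62 for intronic and 3.84 for exonic member sites, against 4.72 off and 3.83 on protein-coding exons over all sites. The 2 intronic rAb peaks both had a log2 fold of 3.24 from 3 IP reads over 1, and the 11 exonic ones a median of 1.24.

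Overlap between lists needed at least 1 shared base on the same strand. Of the 31 small intestine member sites, 14 (45.2%) overlapped an mAb peak, against 35.8% of all small intestine sites. Seen from the mAb list, 12 of 53 member peaks (22.6%) overlapped a small intestine site, against 2.29% of all mAb peaks. These pairs came from 7 genes, and in 2 of them, Atf3 and Fosb, a site of the one list lay on a site of the other. Between the colon lists, 5 of 53 mAb member peaks (9.43%) overlapped a rAb peak, against 18.2% of all mAb peaks, and these were 5 of the 13 rAb member peaks (38.5%, against 32% of all rAb peaks). The 5 pairs were on Atf3, Jun, Jund, Jund and Ier2. Of rAb member peaks 3 (23.1%) overlapped a small intestine site, against 2.12% of all rAb peaks, and these were 3 of the 31 small intestine sites (9.68%, against 19.3%). The shares seen from the colon lists are matched neither on reads nor on genes. Median traced IP reads were 8 for member and 3 for all mAb peaks, and 5 and 3 in the rAb list. Of the 10 members, 9 had a small intestine site, against 7.43% of genes with an mAb peak.

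**Figure D4:**
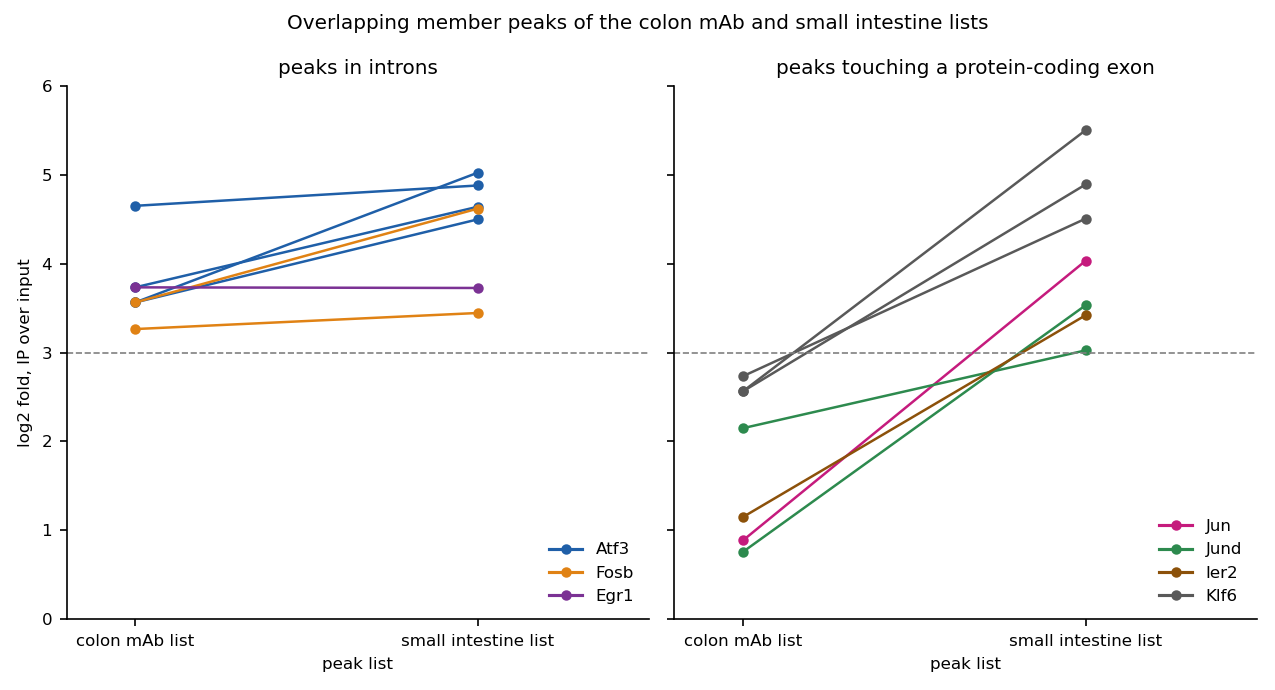
Log2 fold of IP over input (y axis) for the 14 overlapping pairs of member peaks, joined from the colon mAb list to the small intestine list; pairs whose mAb peak lies in an intron are in the left panel and pairs touching a protein-coding exon in the right, coloured by gene. The mAb values are above 3 in all 7 intronic pairs and below 3 in all 7 exonic pairs, and Klf6 and Atf3 each have 1 mAb peak that meets 2 small intestine sites. No gene appears in both panels, so position and gene are not separated.

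In these 14 pairs, the 7 intronic ones, on Atf3, Fosb and Egr1, had mAb log2 folds of 3.26 to 4.65 and small intestine log2 folds of 3.45 to 5.02. The 7 exonic ones, on Jun, Jund, Ier2 and Klf6, had mAb log2 folds of 0.76 to 2.73 and small intestine log2 folds of 3.02 to 5.50. No gene had pairs of both kinds, so position and gene cannot be told apart here. The mAb peaks of the intronic pairs had an input of 1 read, except the Fosb site with 2. Those of the exonic pairs had inputs of 2 to 14 reads. Small intestine minus mAb, the median difference was 0.91 (−0.01 to 1.46) for the intronic and 2.33 (0.88 to 3.15) for the exonic pairs. Over all overlapping pairs of the 2 lists, the median difference was 2.55 for the 258 pairs whose mAb peak touched no protein-coding exon, exons of non-coding RNAs included, and 3.32 for the 227 others. The lists have different protocols, their depths could not be compared, and the small intestine list holds sites only. The size of a difference can therefore not be read as a tissue difference.

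Other genes of the early response were counted from lists by role. Among 14 further AP-1 and related leucine-zipper factors, 7 had an mAb peak and 4 a rAb peak, none of them a site, and 5 had a small intestine site. These were Fosl2 (log2 fold 3.45) and Atf4 (3.47), both in the 5′ UTR, and the small Maf proteins Maff (4.21), Mafg (4.06 and 4.28) and Mafk (5.43), all in introns. Among 18 early zinc-finger and nuclear receptor factors, 11 had an mAb peak and 5 a rAb peak. Klf3 had an mAb site (3.89, from 10 IP reads over 1) that overlapped one of its 6 small intestine sites (3.37 to 5.14), and Klf10 had 3 small intestine sites (4.33 to 5.26).

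Of 33 feedback and effector genes, 19 had an mAb peak and 15 a rAb peak. Mcl1, an anti-apoptotic protein, had an mAb site in its 3′ UTR (4.02, from 11 IP reads over 1). Errfi1, a feedback inhibitor of the EGF receptor, had an mAb site in an intron with more reads than the Atf3 site (4.61, from 33 IP reads over 2, −log10 p 10.7), and it overlapped small intestine sites at 3.99 and 4.51. In the small intestine the MAP kinase phosphatase Dusp5 had 1 site (5.43) and Zfp36, which directs the decay of AU-rich messages, had 4 (3.98 to 4.46). Of 26 kinases and factors upstream of early gene induction, 19 had an mAb peak and 10 a rAb peak, with no site in either, and Creb1 alone had a small intestine site (4.06). None of these lists had a site in the rAb list, where 3.17% of all genes with a peak had one, and the mAb background by gene was 2.64%. For small intestine sites the share was 7.43% of genes with an mAb peak, while these lists also hold genes without one. Of the 55450 annotated genes, 5558 had an mAb peak and 3907 a rAb peak. The counts of these lists are descriptions.

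The labelled tissues were checked against marker genes. Of 9 intestinal epithelial markers, 8 had an mAb peak, 7 a rAb peak and 5 a small intestine site. All 5 colon epithelial markers had an mAb peak and 2 a rAb peak, and none had a small intestine site, whereas 5 of 7 small intestine markers had a small intestine site and none a colon peak. The small intestine list holds sites only, so called colon peaks and small intestine sites are not counted alike. Of the intestinal epithelial and of the colon markers, 1 each had an mAb site and none a rAb site. Markers of other cells were present in the colon lists. Of 8 stromal, muscle and vessel markers, 5 had 81 peaks in the mAb list and 3 had 64 in the rAb list, and of 7 immune markers 1 had 4 mAb and 5 rAb peaks. None of those peaks was a site, and neither set had a small intestine site. With only sites listed for the small intestine, this does not show that such cells were absent there. Their part in the member peaks of the colon lists was not tested.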

How the data were processed

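The authors trimmed reads (cutadapt 1.9.1, per the labels' processing notes), aligned them (STAR 2.4.0i, with SAMtools 1.4.1), called peaks with CLIPper on the IP reads and deposited for each peak a log2 fold of depth-normalized IP over input reads and a −log10 p, capped at 400. The deposited small intestine list merges 2 replicates by the Irreproducible Discovery Rate procedure. The build was checked against the annotation: 23 of 24 member introns start with GT and end with AG, and 0 peaks ran past a chromosome end.

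Regions were taken from GENCODE M21 by overlap of at least 1 base on the strand, in the order coding sequence, 5′ UTR, 3′ UTR, non-coding exon, intron within 500 bases of an exon, other intron. No member peak overlapped another gene on its strand. Whole reads were sought that gave a colon peak's fold and, within 1%, its −log10 p, with the commonest fold read as 3 IP reads over 1. The p was computed by an exact binomial test, the large-library limit of Fisher's exact test, or by Yates' chi-square test. This traced 98.8% of 13011 mAb and 99.2% of 8282 rAb peaks (47 and 12 of the member peaks, the other 6 and 1 having a −log10 p of 0). In 2 simulated lists of 1000 peaks, 969 and 984 peaks were traced, 963 and 977 of them to the true reads. Those lists were made with the same tests and with 3 IP reads over 1 as the commonest pair, at depth ratios of 1.4 and 2.6. They check the tracing step only, and cannot show that the authors' values arose in this way. Depth per library is not given in the files.

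All 10 members are named, as is each other early response gene with a site. The members and gene lists were chosen with earlier results of these data known. Cyr61, Ctgf, Mkl1 and Mkl2 were matched under the symbols Ccn1, Ccn2, Mrtfa and Mrtfb. Another peak list fitted none of the sample labels and is not used here. Python 3.11.15, pandas 2.3.3, scipy 1.17.1 and pysam 0.24.0 were used.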

Additional observations from a re-analysis of the deposited data

How the results depend on the processing

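Of 32 alternative values computed for the member counts, shares and backgrounds, 26 stayed within 1.5 times the count, or within the interval of the share, and 6 moved. Some of the 26 could not move. The rAb site count was fixed at 0, as no rAb member peak had a −log10 p above 1.96. The small intestine count could not change at a −log10 p cutoff of 5, as its lowest member value was 8.11. The rAb exonic share was judged against a wide interval, 54.6 to 98.1%. With a −log10 p cutoff of 5, or with a log2 fold cutoff of 4, the mAb list had 1 member site, on Atf3, in place of 3, and with a log2 fold cutoff of 1 it had 6, on Atf3, Btg2, Fosb and Jund. With a log2 fold cutoff of 4 the small intestine list had 17 member sites in place of 31, on Atf3, Fosb, Jun, Junb and Klf6. The background share of sites was 17.5% (mAb) and 15.4% (rAb) among peaks with enough IP reads to reach the cutoff. The shares over genes with at least 4 mAb peaks, and past the fold cutoff over peaks with enough IP reads, were chosen after seeing the data. No member site appeared in the rAb list under any cutoff tried; no p-value was computed there, and 13 peaks with at most 13 IP reads limit what could pass. No paired analysis was possible because each deposited list holds 1 value per peak, merged over replicates in the small intestine, and each colon group has 1 sample, and for the same reason no replicate could be left out.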
